A study of Caenorhabditis elegans with 2 samples.

Results

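Aminoacyl-tRNA synthetases are the enzymes that join each amino acid to its own tRNA, so translation uses their products. Their genes are protein-coding genes transcribed by RNA polymerase II, whereas the tRNAs they charge are made by RNA polymerase III. Animal cells need a set of synthetases in the cytosol and another in mitochondria, and some genes make an enzyme for both places. SNPC-4 belongs to SNAPc, a complex that binds promoters of small nuclear RNA genes, which are transcribed by either polymerase. In *C. elegans* it is also known for its part in the transcription of piRNA genes in the germ line.

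The synthetase genes were the protein-coding genes with a symbol made of a single letter, ars, a hyphen and a number in the RefSeq annotation of WBcel235. There were 33 of them among 19971 nuclear protein-coding genes. A further gene with such a symbol, *cars-2*, is annotated as a pseudogene and was left out. By enzyme, 17 genes were placed in the cytosol, 12 in mitochondria and 3 in both (*gars-1*, *hars-1* and *kars-1*), and *vars-1* was left unplaced. The product name gave the place for 15 genes, and textbook knowledge gave it for 17.

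The data were ChIP-seq lists of regions bound by SNPC-4 tagged with enhanced green fluorescent protein in whole L3 larvae of *Caenorhabditis elegans*. Both libraries came from the OP179 strain, which carries the *unc-119* allele ed3 on chromosome III and the wgIs179 transgene, and the sexes were mixed. They were 2 biological replicates of 1 group, with no second condition. The labels do not say whether the animals kept their own *snpc-4* gene, and binding in different tissues cannot be told apart in whole larvae. The thresholded list held 2672 peaks, made from both replicates. A pooled list and a list for each replicate held 30000 regions each, peaks and background together. The authors' signal value, whose unit is arbitrary, ranks the regions within a list (rank 1 is the strongest). The lists give no read counts, so sequencing depth is unknown. A gene was counted where a summit lay within 500 bp of its annotated 5′ end, and positions upstream of that end are negative.

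SNPC-4 peaks were found at a minority of synthetase genes. A thresholded peak lay at 6 of the 33 (18.2%, 95% exact binomial interval 6.98 to 35.5), against 8.94% of all protein-coding genes. The interval includes that background share, and it covers counting error only. The 6 genes were *aars-1*, *aars-2*, *ears-2*, *hars-1*, *mars-1* and *tars-1*. They charge tRNAs for alanine, glutamate, histidine, methionine and threonine. At all 6 the synthetase had the 5′ end nearest to the summit. Counted only where a gene had the nearest annotated 5′ end, the share over all protein-coding genes was 6.02%. That share lies below the interval given for 6 of 33, though close to its lower end of 6.98%, and the difference was not tested. The count of 6 includes *ears-2*, whose summit lay 40 bp from its own 5′ end and 52 bp from that of the divergent *uncp-18*. No interval was computed without *ears-2*.

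All of the peaks but that of *ears-2* ranked behind the median of protein-coding genes with a thresholded peak. The median rank at the 6 genes was 1841 of 2672, against 1108 over the 1785 protein-coding genes with a thresholded peak. The best rank was 591, at *ears-2*, and the lowest was 2250, at *aars-2*. The median signal value was 38.4 at the 6 genes and 52.9 over all protein-coding genes with a peak. Summits lay upstream of the 5′ end at all 6, from -363 to -40 bp, with a median of -181.5 bp. Over all protein-coding genes with a peak the median was -184 bp, and 93.5% of the summits were upstream.

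The peaks of 3 genes are shown by their sequence because they differ in what surrounds the summit. Each stretch is 200 bases of WBcel235 centred on the summit, on the sense strand of the synthetase gene. At *ears-2* (chrIV:390408-390607, minus strand) capitals mark the 91 bases between the 5′ ends of *ears-2* and its divergent neighbour. At *tars-1* (chrII:11694556-11694755, minus strand) they mark the word GCGTCAGC and its reverse complement. At *aars-1* (chrII:11464510-11464709, minus strand) they mark the words AGACGCAG and CACACACA.
ears-2: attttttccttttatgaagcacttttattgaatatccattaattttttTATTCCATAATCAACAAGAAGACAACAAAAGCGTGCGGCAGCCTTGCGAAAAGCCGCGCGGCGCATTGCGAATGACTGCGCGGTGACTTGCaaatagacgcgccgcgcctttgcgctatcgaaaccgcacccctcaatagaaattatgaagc
tars-1: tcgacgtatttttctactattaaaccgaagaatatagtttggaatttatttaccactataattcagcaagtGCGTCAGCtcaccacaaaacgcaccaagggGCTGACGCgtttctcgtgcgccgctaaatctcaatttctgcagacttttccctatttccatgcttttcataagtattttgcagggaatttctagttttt
aars-1: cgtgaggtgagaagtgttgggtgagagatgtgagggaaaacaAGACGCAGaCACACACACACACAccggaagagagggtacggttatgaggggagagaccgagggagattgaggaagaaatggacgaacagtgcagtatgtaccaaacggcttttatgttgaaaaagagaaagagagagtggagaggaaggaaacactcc

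*ears-2* (T07A9.2) encodes the glutamyl-tRNA synthetase of mitochondria, which its product name calls nondiscriminating. Such enzymes also put glutamate on the glutamine tRNA, and an amidotransferase then converts it to glutamine. Its peak (chrIV:390363-390652) had a signal value of 73.1. In the replicate lists the region ranked 845 (signal 34.3) and 586 (signal 37.0). The summit lay 40 bp upstream of *ears-2* and 52 bp upstream of *uncp-18*, which encodes a syntaxin-binding protein and is transcribed the other way. The binding therefore cannot be assigned to either gene of the pair. This was the synthetase peak with the best rank in the pooled list, and it was also among the 2672 strongest regions of each replicate.

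*tars-1* (C47D12.6) encodes threonyl-tRNA synthetase. Its peak (chrII:11694511-11694800) had a signal value of 50.9 and rank 1178. The replicate lists gave rank 1032 (signal 30.9) and rank 1665 (signal 20.6). No other annotated 5′ end lay within 500 bp of this summit, which was 363 bp upstream of *tars-1*. The word GCGTCAGC began at -391 bp from the 5′ end and its reverse complement at -361 bp, which is -28 and 2 bp from the summit. On either strand this word was present at 62 of 2646 nuclear peaks (2.34%), 58 of which were among the 1376 peaks near a protein-coding gene. It was in 0.481% of the 300-bp windows from 250 bp upstream to 50 bp downstream of protein-coding 5′ ends. The word was picked after the sequence was seen, and a match is not evidence of a site.

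*hars-1* (T11G6.1) encodes histidyl-tRNA synthetase, from a gene that serves both compartments. Its peak (chrIV:10858692-10858981, signal 39.2) ranked 1781, with the summit at -120 bp. The region ranked 1726 (signal 22.8) in replicate 1 and 3821 (signal 11.3) in replicate 2. The divergent *T11G6.2*, which encodes a sugar phosphate exchanger, had its 5′ end 341 bp from the summit, farther than that of *hars-1*.

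*aars-1* (W02B12.6) encodes the alanyl-tRNA synthetase of mitochondria. Its peak (chrII:11464465-11464754, signal 37.6) ranked 1901 with the summit at -113 bp. The replicates disagreed here. The region ranked 769 (signal 36.1) in replicate 1 and 17844 (signal 3.82) in replicate 2, a 23.2-fold difference in rank. Of 1754 protein-coding genes with a thresholded peak and a region in both replicate lists, 6 had a difference in rank at least as large, *aars-1* included. Its coding sequence begins 476 bp downstream of the 5′ end, so measured from there the summit was outside the window.

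*aars-2* (F28H1.3) encodes the cytosolic alanyl-tRNA synthetase, and both alanyl enzymes thus had a peak. The peak (chrI:3982795-3983084, signal 33.1) ranked 2250, with the summit at -243 bp. It ranked 1585 (signal 24.2) in replicate 1 and 5996 (signal 8.06) in replicate 2. *mars-1* (F58B3.5) encodes the cytosolic methionyl-tRNA synthetase, and its peak (chrIV:11635645-11635934, signal 33.4) ranked 2206, with the summit at -303 bp. It ranked 3340 (signal 14.9) in replicate 1 and 1956 (signal 18.6) in replicate 2. Neither summit had another annotated 5′ end within 500 bp. Of the 6 peaks, 4 ranked better in replicate 1 and 2 in replicate 2.

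**Figure D1:**
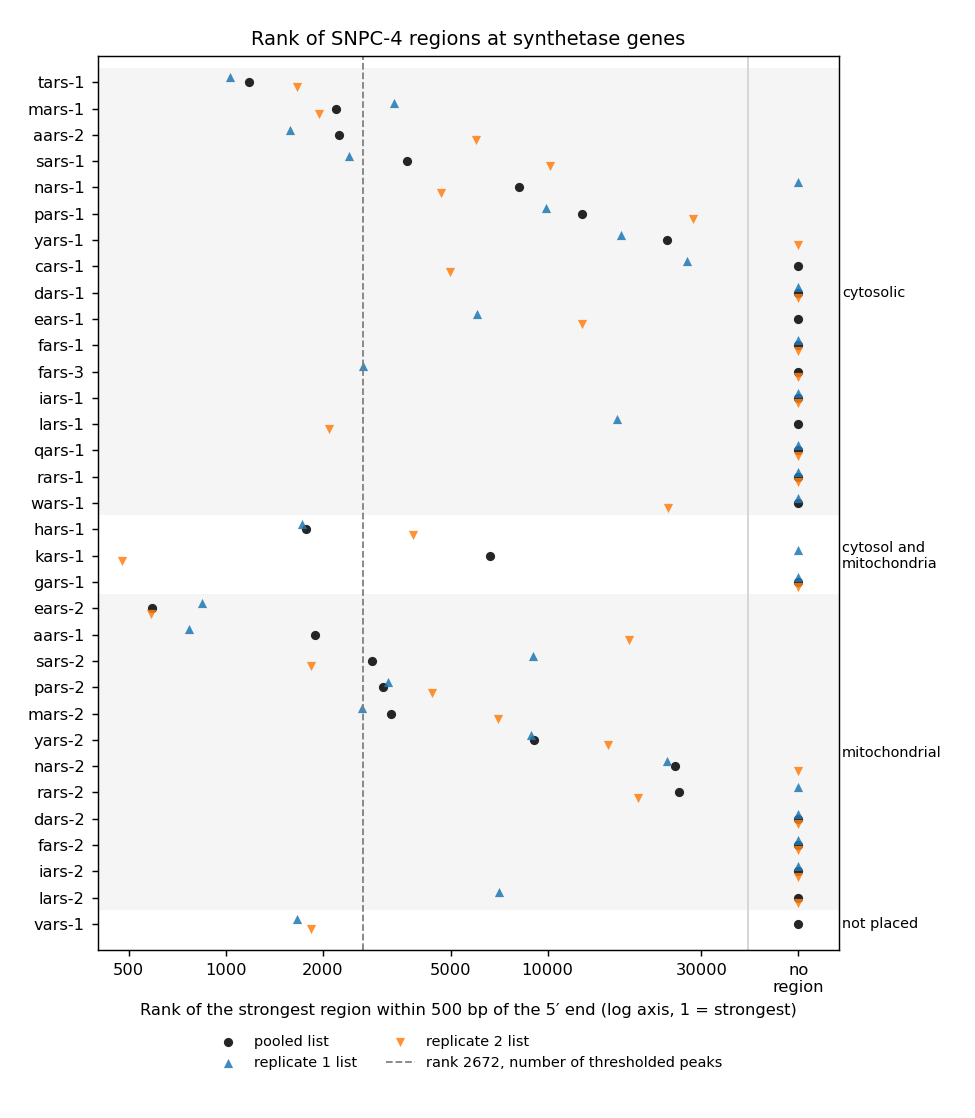
Rank of the strongest region within 500 bp of the 5′ end of each of the 33 synthetase genes in the pooled list (circles), the replicate 1 list (upward triangles) and the replicate 2 list (downward triangles), on a log axis with genes grouped by the place of the enzyme. The dashed line is rank 2672; 6 genes have a pooled region left of it, and the points in the column at the right have no region in that list.

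Cytosolic and mitochondrial enzymes had peaks in similar shares at the threshold. The counts were 3 of 17 cytosolic genes (17.6%, exact binomial interval 3.80 to 43.4) and 2 of 12 mitochondrial genes (16.7%, interval 2.09 to 48.4). Just below the threshold lay more mitochondrial than cytosolic genes. Within the 5344 strongest pooled regions, which is 2 times the thresholded number, were 5 of 12 mitochondrial genes (41.7%, interval 15.2 to 72.3) and 4 of 17 cytosolic genes (23.5%, interval 6.81 to 49.9). Over all synthetase genes it was 10 of 33 (30.3%, interval 15.6 to 48.7), and over all protein-coding genes 13.7%, which is below the intervals of the 33 and of the mitochondrial genes and within that of the cytosolic genes. The intervals of the compartments overlap widely, and the difference between compartments was not tested.

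The 4 genes added by that looser limit each had a summit upstream of the 5′ end. *sars-2*, the mitochondrial seryl-tRNA synthetase gene, had pooled rank 2848 (signal 27.7), close to the lowest signal among thresholded peaks (29.07). Its region ranked 8993 in replicate 1 and 1846 in replicate 2. *pars-2*, the mitochondrial prolyl-tRNA synthetase gene, had pooled rank 3070 (signal 26.1) with the summit 16 bp upstream of the 5′ end, and its replicate ranks were 3184 and 4361. *mars-2*, which encodes the methionyl enzyme of mitochondria, had pooled rank 3260 (signal 24.9), and ranked 2644 in replicate 1 and 7035 in replicate 2. *sars-1*, the cytosolic seryl gene, had pooled rank 3662 (signal 22.6), and its replicate ranks were 2416 and 10134. At *sars-1* the summit lay nearer to the divergent *C47E12.2*, an ADP/ATP translocase gene (40 bp, against 184 bp). *pars-2* thus had similar ranks in the replicates, while at each of the other 3 a single replicate placed the region among its 2672 strongest.

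A region of any rank in the pooled list lay at 17 of 33 synthetase genes (51.5%, exact binomial interval 33.5 to 69.2). Over all protein-coding genes the share was 34.8%, which lies within that interval. The median pooled rank was 3260 at those 17 and 8637.5 over the 6942 protein-coding genes with a region. The weaker regions were at *kars-1*, *nars-1*, *yars-2*, *pars-1*, *yars-1*, *nars-2* and *rars-2*, with ranks from 6633 to 25528. A region of any rank lay at 20 genes in each replicate list (60.6%, background 35.6% in replicate 1 and 36.8% in replicate 2), and at 16 genes in both (48.5%, exact binomial interval 30.8 to 66.5, background 22.3%). *cars-1*, *ears-1*, *fars-3*, *lars-1*, *lars-2*, *vars-1* and *wars-1* had a region in a replicate list but none in the pooled list. No region in any list was found at 9 genes (27.3%), against 47.5% of all protein-coding genes. These were *dars-1*, *dars-2*, *fars-1*, *fars-2*, *gars-1*, *iars-1*, *iars-2*, *qars-1* and *rars-1*. Both subunit genes of the cytosolic phenylalanyl enzyme, *fars-1* and *fars-3*, were thus without a pooled region.

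Several genes without a peak had a strong region farther away, within 2000 bp. With a window of 1000 bp, 8 of 33 synthetase genes had a thresholded peak (24.2%), with *fars-1* and *iars-1* added. The share over all protein-coding genes also rose, to 11.5%. At *iars-1*, the cytosolic isoleucyl gene, a thresholded peak (rank 2580, signal 30.1) had its summit at -582 bp and 235 bp from the 5′ end of *pges-2*. At *qars-1*, the glutaminyl gene, a pooled region just below the threshold (rank 2797, signal 28.1) lay at -571 bp, and 281 bp from the 5′ end of *Y41E3.7*. *gars-1*, the glycyl gene, had one of rank 2829 (signal 27.9) at 590 bp, downstream of its 5′ end. A thresholded peak of rank 1685 (signal 40.9) lay at -984 bp from *fars-1*, but 157 bp from *rbm-5*. Another, of rank 1930, lay 1750 bp downstream of the *fars-1* 5′ end and 12 bp from the 5′ end of the snoRNA gene *T08B2.13*.

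The genes were then split by their upstream neighbour. Many nematode genes lie in runs on the same strand and share an upstream promoter. The nearest upstream protein-coding gene ended within 500 bp on the same strand at 12 synthetase genes. None of these 12 had a thresholded peak (exact binomial interval 0 to 26.5%), against 5.73% of all protein-coding genes with such a neighbour. Facing a divergent gene within 500 bp were 6 synthetase genes, and 3 of them had a peak (*aars-1*, *ears-2* and *hars-1*; 50%, interval 11.8 to 88.2). The share was 31.8% over all genes with a divergent neighbour. Of the 15 with no gene within 500 bp upstream, 3 had a peak (*aars-2*, *mars-1* and *tars-1*; 20%, interval 4.33 to 48.1), against 6.95% of such genes in all. Each of these background shares lies within the interval of the synthetase genes of that arrangement. Within the 5344 strongest pooled regions the counts were 1 of 12 behind a same-strand gene (*mars-2*, interval 0.211 to 38.5, background 9.29%), 4 of 6 facing a divergent gene (*sars-1* added, interval 22.3 to 95.7, background 40.3%) and 5 of 15 with no gene close (*pars-2* and *sars-2* added, interval 11.8 to 61.6, background 11.5%). In the last of these the background lies just below the interval.

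The 12 genes close behind a same-strand neighbour were *dars-2*, *fars-3*, *gars-1*, *iars-2*, *lars-2*, *mars-2*, *nars-2*, *rars-1*, *rars-2*, *vars-1*, *yars-1* and *yars-2*. Of these, 7 encode mitochondrial enzymes. *mars-2* and *yars-1*, a mitochondrial methionyl and a cytosolic tyrosyl gene, follow each other with a gap of 110 bp. At 2 of the 12 the first gene of the run had a thresholded peak, and *mars-2* and *yars-1* share their first gene. The share over first genes of all such runs was not counted. Over all protein-coding genes the share with a thresholded peak was 8.94%, so the count is a description only. *pold-1*, for the catalytic subunit of DNA polymerase delta, lies 2 genes before *dars-2* and had a peak of rank 888 (signal 59.3). *ZK524.4*, a protein kinase gene directly before *lars-2*, had a peak of rank 2241 (signal 33.1). A thresholded peak of rank 1697 (signal 40.6) lay at -1032 bp from *rars-1*, which is 141 bp from the 5′ end of *rpb-8*, an RNA polymerase subunit gene just before it in the run. Whether these genes form operons was not tested.

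**Figure D2:**
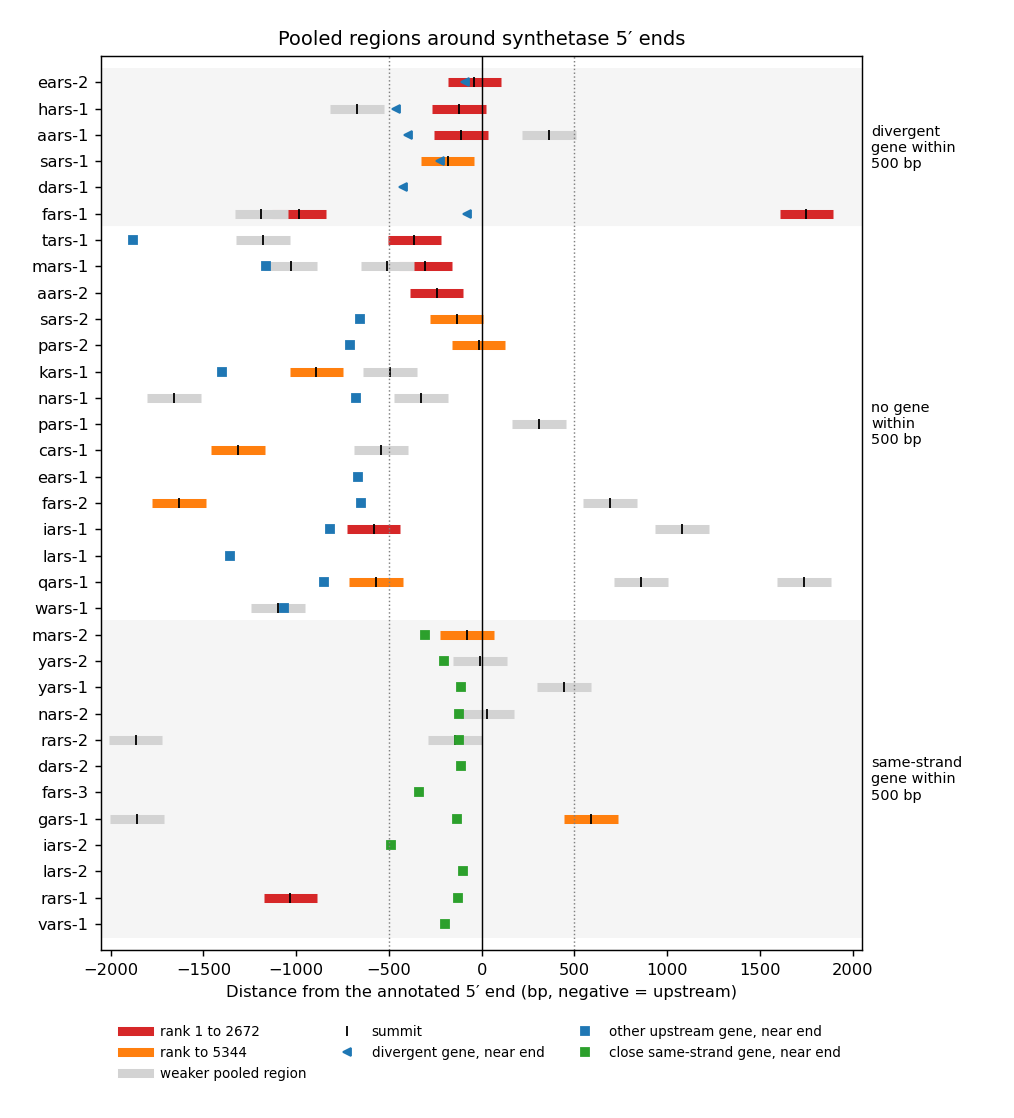
Pooled regions within 2000 bp of the 5′ end of each synthetase gene, plotted by distance from that end in bp (negative is upstream) and grouped by the upstream protein-coding neighbour. Red bars are regions ranked to 2672, orange bars to 5344 and grey bars weaker ones; ticks are summits, and squares and triangles mark the near end of the upstream gene. No red bar has its summit within 500 bp (dotted lines) in the lowest group of 12 genes.

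**Figure D3:**
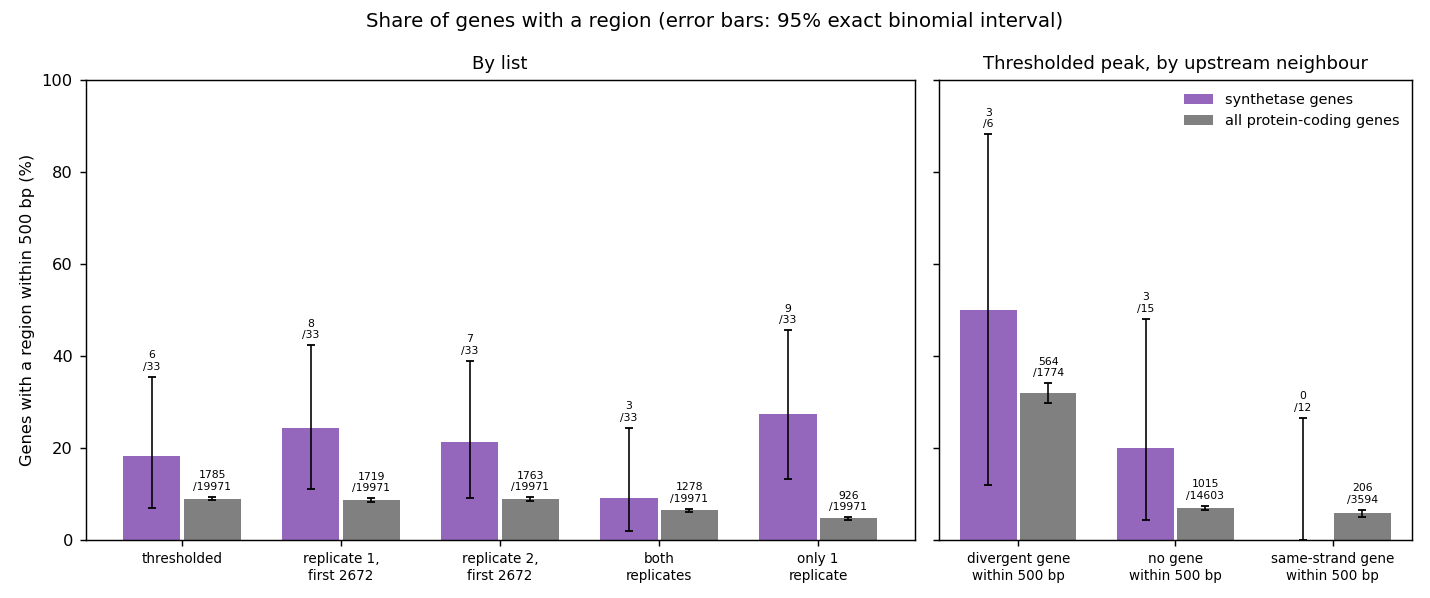
Share of genes with a region within 500 bp of the 5′ end (percent) for the 33 synthetase genes (purple) and 19971 protein-coding genes (grey), by list at the left and by upstream neighbour at the right. Error bars are 95% exact binomial intervals, and counts stand above them; the error bars of the synthetase genes plotted include the grey share except for the 2672 strongest regions of replicate 1 (11.1 to 42.3%), those of replicate 2 (8.98 to 38.9%) and genes in that set of only 1 replicate (13.3 to 45.5%).

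How far the replicates shared synthetase genes depended on the rank considered. With regions of any rank, 16 of the 24 synthetase genes with a region in either replicate list had one in both (66.7%), against 44.4% of 10024 protein-coding genes. Among the 2672 strongest regions of each replicate list, replicate 1 had a region at 8 synthetase genes (24.2%, background 8.61%) and replicate 2 at 7 (21.2%, background 8.83%). *ears-2*, *tars-1* and *vars-1* were in both (3 of 33, 9.09%, exact binomial interval 1.92 to 24.3, background 6.40%). Exactly 1 replicate held the other 9 (27.3%, exact binomial interval 13.3 to 45.5, background 4.64%). Of the 12 synthetase genes in either, 25% were in both, against 58.0% of 2204 protein-coding genes. Neither difference was tested, and the protein-coding genes were not matched to the synthetase genes in rank. In replicate 1 the best rank was 769 at synthetase genes and 1 over all protein-coding genes. In replicate 2 it was 475 and 2. At the 9 genes held by a single replicate, the ranks in the lists differed from 1.71-fold (*mars-1*) to 23.2-fold (*aars-1*), except that *kars-1* had no region in replicate 1. The reason for these differences was not tested.

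By gene, *aars-1*, *aars-2*, *hars-1*, *mars-2* and *sars-1* were in the replicate 1 set alone, and *kars-1*, *lars-1*, *mars-1* and *sars-2* in that of replicate 2 alone. At *kars-1*, the lysyl gene, the contrast was wide. Replicate 2 had a region of rank 475 (signal 40.6) at -291 bp, replicate 1 had none within 500 bp, and the pooled region had rank 6633 with its summit at -493 bp. *lars-1*, the cytosolic leucyl gene, ranked 2088 in replicate 2 and 16467 in replicate 1. *fars-3* ranked 2673 in replicate 1, the first rank past the limit, and had no region in replicate 2.

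Over the 16 synthetase genes with a region in both replicate lists, Spearman's rank correlation between the lists was 0.21. It was 0.76 over the 4446 protein-coding genes with both, and 0.65 over the 3857 of them with a better rank no stronger than 586, the best among the 16. Over the 14 synthetase genes with replicate summits within 150 bp of each other it was 0.099, against 0.78 over 3289 protein-coding genes. The values for synthetase genes rest on few genes and have no interval. These correlations run across genes of the same libraries and are given as a description.

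*vars-1* (ZC513.4), a valyl-tRNA synthetase gene, was the case with the best agreement and no pooled region. It ranked 1662 (signal 23.4, summit at -39 bp) in replicate 1 and 1847 (signal 19.3, summit at -62 bp) in replicate 2, which is stronger than the threshold number in both. No pooled region had a summit within 500 bp, so the thresholded list has none either. Such cases were rare. Of 1760 regions among the strongest of replicate 1 with a summit within 150 bp among the strongest of replicate 2, 27 had no pooled summit within 300 bp. By gene, 32 of 19971 protein-coding genes (0.160%) were in both sets without a pooled region. The sources used here do not give how the pooled list was made, and the reason was not tested. Counted from the replicates alone, *vars-1* was the 1 of the 12 genes behind a same-strand neighbour with a strong region in both (background 4.34%). The others with one in both were *ears-2*, 1 of 6 facing a divergent gene (background 23.0%), and *tars-1*, 1 of 15 with no gene close (background 4.89%).

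**Figure D4:**
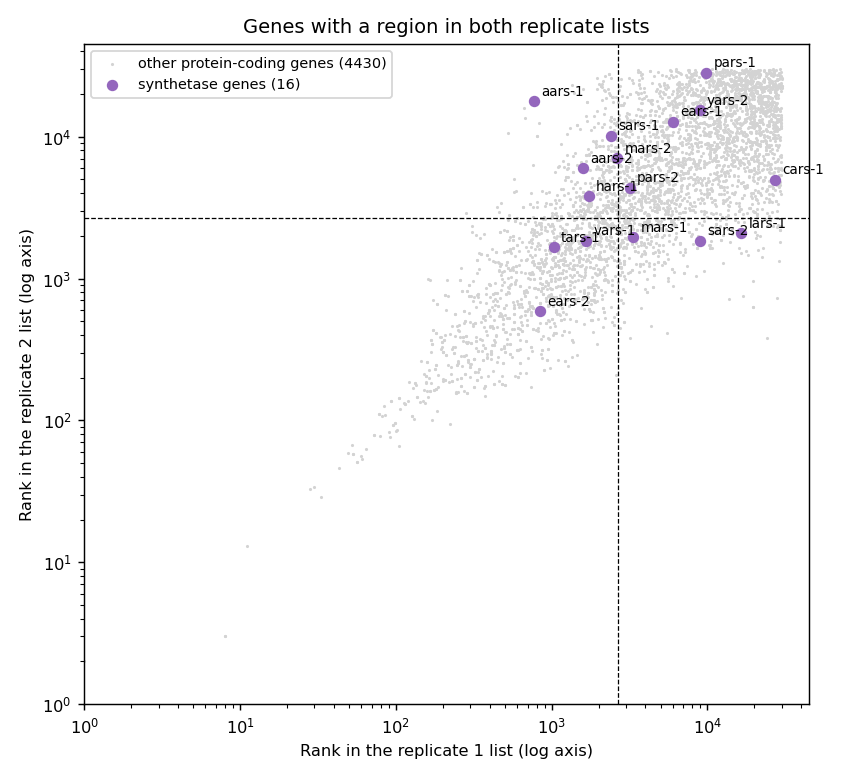
Rank of the strongest region in the replicate 1 list against that in the replicate 2 list (log axes) for 16 synthetase genes (purple, named) and the other protein-coding genes with a region in both lists (grey). Dashed lines are at rank 2672; *ears-2*, *tars-1* and *vars-1* lie below both, and *aars-1* lies far to the upper left.

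Of the short words searched at the 6 synthetase peaks, 3 came from earlier results on the same lists. Each was searched on both strands. AGACGCAG was within 100 bp of the summit at 15.5% of 2646 nuclear peaks, at 13.3% of the 1376 near a protein-coding 5′ end, and at 1 of the 6 synthetase peaks, that of *aars-1*, where it began at -170 bp from the 5′ end. CACACACA, at 8.13% of peaks and 3.63% of those near a protein-coding gene, was also at *aars-1* alone, in 4 overlapping matches from -161 to -155 bp. GAGAGAGA, at 12.1% and 7.12% of these peaks, was at none of the 6. The pattern GTTCGANNC, the core of the B box of tRNA genes, was at 3.29% and 1.45% and at none of the 6. These differences were not tested. In the 300-bp promoter windows AGACGCAG was found at *aars-1* and *cars-1* (2 of 33, against 3.53% of all protein-coding genes). The peaks of *ears-2*, *hars-1*, *mars-1* and *aars-2* held none of the words searched. No match says only that these letters were not in the window.

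The 200 bases at the summit ranged from 30.5% G and C at *mars-1* to 49.0% at *aars-1*. The values were 44.5% at *ears-2*, 42.5% at *aars-2*, 39.0% at *tars-1* and 38% at *hars-1*. Over the 1376 peaks near a protein-coding 5′ end the median was 41.0%, with quartiles of 36.5 and 46.0%. Only *mars-1* and *aars-1* fell outside those quartiles.

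No tRNA, snRNA, snoRNA or microRNA gene had its 5′ end within 500 bp of that of a synthetase gene. The closest tRNA gene to any of them was 46569 bp from *dars-2*. Nuclear tRNA genes were then counted by amino acid. Mitochondrial enzymes such as those of *ears-2* and *aars-1* charge tRNAs encoded in the mitochondrial genome, so only enzymes that serve the cytosol were considered. For the 4 amino acids with a peak at such a synthetase gene (alanine, histidine, methionine and threonine), 21 of 108 tRNA genes had a peak (19.4%). For the other 16 it was 86 of 498 (17.3%), and the background over all tRNA genes was 17.6%. Alanine had the largest share of the 20 amino acids charged by synthetases, 11 of 34 tRNA genes (32.4%, exact binomial interval 17.4 to 50.5). Methionine had 1 of 20 (5.0%).

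Other protein-coding genes with tRNA in their product name were counted in the same way. Besides enzymes they include non-catalytic subunits and a regulator. Among 55 protein-coding genes outside the synthetase list with tRNA in their product name, 9 had a thresholded peak (16.4%, exact binomial interval 7.77 to 28.8), and the 8.94% of all protein-coding genes lies within that interval. Of these 55, 3 are ligases under another name, and none had a peak. They are *glp-4* (valine), *prx-10*, whose products include the mitochondrial tryptophan enzyme, and *K03B4.1*, named as a seryl-tRNA synthetase. The strongest of the 9 peaks was at *pus-1* (rank 214, signal 126), followed by *Y73B6BL.29* (rank 262, signal 113). Both encode tRNA pseudouridine synthases, as do *Y48C3A.20* (signal 67.1) and *tag-124* (signal 56.4), enzymes that isomerise uridines in tRNA. *metl-2* (signal 64.7) and *trm-2A* (signal 63.8) encode tRNA methyltransferases. *C45G9.2* (signal 52.8) encodes a dihydrouridine synthase-like protein, and *C01G10.10* (signal 55.9) a putative threonylcarbamoyltransferase that modifies adenosine in tRNA. *Y41D4A.6* (rank 1695, signal 40.6) encodes subunit A of the glutamyl-tRNA(Gln) amidotransferase, the next step after the nondiscriminating enzyme of *ears-2*. The genes of the other subunits had no thresholded peak: *C39B5.6* (subunit B) had no region in any list, and *Y66D12A.7* (subunit C) had pooled rank 5403. The summits counted for *C01G10.10*, *Y41D4A.6* and *metl-2* lay nearer to the 5′ end of another gene (*C01G10.9*, *Y41D4A.4* and *nsun-5*). In rank, 8 of these 9 peaks stood ahead of every synthetase peak except that of *ears-2*.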

How the data were processed

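SNPC-4 ChIP-seq was analysed in 2 replicates of 1 group, from the deposited lists on ce11, which is WBcel235. Per the deposited readme text, the authors made a thresholded list from both replicates by the irreproducible discovery rate and, as its input, pooled and per-replicate lists of peaks and background, against a control alignment not analysed here. The signal value of each region is the authors', on the scale of its own list, and was used only to describe and rank regions within that list. The sources used here do not give the aligner, peak caller or threshold, and depth is unknown. The lists on ce10 were not used.

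The 2672 thresholded peaks were the 2672 strongest pooled regions. Genes, 5′ ends, products and sequences came from RefSeq on WBcel235. The strongest region with a summit within 500 bp of the 5′ end was taken for each gene. Shares have 95% exact (Clopper-Pearson) binomial intervals, which cover counting error only and treat genes as independent. No test between groups was possible with 1 group. Values were given for every synthetase gene with a thresholded peak or a pooled region ranked to 5344, and the rest were accounted for by name. The members, gene lists and words were chosen with earlier results of these data known. Python 3.11.15, pandas 2.3.3, numpy 2.4.6, scipy 1.17.1 and matplotlib 3.10.9 were used, and the assignment of summits to genes was tested on simulated data.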

Additional observations from a re-analysis of the deposited data

How the results depend on the processing

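The count of 6 synthetase genes with a thresholded peak was 4 (12.1%) at 250 bp and 8 (24.2%) at 1000 bp. It became 2 with the stronger 50% of peaks, 10 with pooled regions ranked to 5344 and 17 with every pooled region. It ranged from 7 to 8 when a replicate was left out and the strongest 2672 regions of the other were used. The cytosolic count of 3 became 1 at 250 bp, 5 at 1000 bp, 1 with the stronger 50% of peaks and 7 with every pooled region, and was 3 with either replicate left out, though of different genes (*lars-1*, *mars-1* and *tars-1* without replicate 1, *aars-2*, *sars-1* and *tars-1* without replicate 2). The mitochondrial count of 2 became 1 with the stronger 50%, 5 to rank 5344, 8 with every pooled region and 1 with positions taken from the coding start (chosen after seeing the data), and ranged from 2 to 3 with a replicate left out. The background of 1785 genes became 1163 (5.82%) at 250 bp, 2299 (11.5%) at 1000 bp and 1048 with the stronger 50%. It was 2728 to rank 5344 and 6942 with every pooled region, and ranged from 1719 to 1763 with a replicate left out. With only the nearest annotated 5′ end counted it was 1202 (6.02%), while the synthetase count stayed at 6. For the same 6 genes with a thresholded peak, the median rank was 1841 in the pooled list. By their ranks in a replicate's own list it was 2888.5 in replicate 2 and 1308.5 in replicate 1. With a gap of 250 or 1000 bp (chosen after seeing the data) the synthetase genes behind a same-strand neighbour still had 0 peaks. The tRNA gene counts by enzymes that serve the cytosol and the replicate counts at any rank were also chosen after seeing the data. With enzymes of either compartment the tRNA gene counts were 26 of 149 (17.4%) and 81 of 457 (17.7%). At 250 bp *mars-1* and *tars-1* had no region. No paired analysis was possible because there was 1 group. With no read counts, the absence of a region at a gene cannot be set against depth.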
